A study of Mus musculus with 13 samples.

Results

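The genes described are 9 neutrophil genes and neutrophil chemokines, S100a8, S100a9, Csf3r, Cxcr2, Retnlg, Cxcl1, Cxcl2, Cxcl5 and Csf3, taken by symbol from a table of 53465 genes, in which all 9 were found. RNA was sequenced from whole tissue of 10 MP EPO-GEMM tumors, labelled MP1 to MP10, and of 3 ovaries of wild-type (WT) C57BL/6 mice. The MP tumors (genotype Myc;p53-/-) arose in C57BL/6 females whose ovary was electroporated at 8 to 12 weeks of age with a vector carrying Cas9 and a guide RNA against Trp53, together with a transposon that overexpresses MYC and the Sleeping Beauty transposase. Neither group received a drug. Electroporation does not select a cell type, the tumors are described as oligoclonal, and the labels give no age at collection for either group. The tissue was not sorted, so a lower value can mean fewer cells of a type or less RNA per cell, and these cannot be told apart.

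Neutrophils are short-lived phagocytes that leave the bone marrow under the control of granulocyte colony-stimulating factor (G-CSF, encoded by Csf3) and enter tissue along gradients of CXC chemokines. CXCL1, CXCL2 and CXCL5 all bind the receptor CXCR2 on the neutrophil surface, and in tumors they can be made by cancer cells, fibroblasts and macrophages. S100A8 and S100A9 form calprotectin, a calcium- and zinc-binding complex that fills the neutrophil cytoplasm and is also made by monocytes and by some stressed epithelia.

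Values are TPM (transcript abundances scaled for gene length so that each library sums to 1000000), so TPM may be compared between genes. Reads worked back from the table came to between 31445004 and 64013840 per WT ovary and between 3892690 and 19906507 per MP tumor. For a gene 1 kb long, a single read corresponds to 0.0513 to 0.790 TPM, depending on the library. In MP2, 10 genes held 55.1% of all TPM, against at most 20.6% in the other tumors. The library names carry 3 numbers, of which 1 is common to the 3 WT ovaries and MP1 to MP3, another to MP4 to MP6 and the last to MP7 to MP10. The labels do not say what the number stands for, and each comparison was also made within the 6 same-number libraries that include the WT ovaries. Trp53 lay between 80.7 and 85.4 TPM in WT ovaries and between 4.30 and 25.99 TPM in MP1 to MP9. In the library labelled MP10, which has the same genotype label, it was at 187 TPM. The TPM does not tell whether the gene is disrupted, and the cause of this value was not tested. The log2 fold change of Trp53 over all tumors was -2.23 (standard error 0.77, limma, Benjamini-Hochberg adjusted p = 0.0579). The 9 ovary markers tested (Cyp11a1, Star, Amh and Zp3 with the largest changes) were all lower in MP tumors, against 14.3% of all genes tested. Their summed TPM was 11591 to 14838 in WT ovaries and 17.7 to 1553 in MP tumors. Of these markers 3, Zp3 among them, reached 1 TPM in fewer than 3 tumors.

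In the table's coordinates, which are those of mouse build GRCm38, S100a8 (ENSMUSG00000056054, chromosome 3, 90668978 to 90670035, plus strand) and S100a9 (ENSMUSG00000056071, chromosome 3, 90692632 to 90695721, minus strand) are neighbors in the S100 cluster. The 3 chemokine genes lie together on chromosome 5, all on the plus strand: Cxcl5 (ENSMUSG00000029371) at 90759360 to 90761624, Cxcl1 (ENSMUSG00000029380) at 90891241 to 90893115 and Cxcl2 (ENSMUSG00000058427) at 90903871 to 90905938. Csf3r (ENSMUSG00000028859) is at 126024550 to 126044440 on chromosome 4, and Cxcr2 (ENSMUSG00000026180) at 74153989 to 74161246 on chromosome 1. Retnlg (ENSMUSG00000022651) is at 48872608 to 48874498 on chromosome 16, and Csf3 (ENSMUSG00000038067) at 98701263 to 98703629 on chromosome 11, and all 4 of these are on the plus strand. All 9 are annotated as protein-coding, and no other gene of GENCODE M21 overlaps any of them. Retnlg is the 1 gene whose start or end in the table differs from that release.

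The sequences before the starts of the calprotectin pair and of the chemokines Cxcl1 and Cxcl2 are shown because S100a8 and S100a9 had the highest median TPM of the 9 genes in the tumors and Cxcl1 and Cxcl2 are neighboring genes that bind the same receptor as proteins. S100a8 and Cxcl2 lay above the WT ovaries in most tumors, as did S100a9, and Cxcl1 did not. The regions before Cxcl1 and Cxcl2 hold the same run of letters, and its relation to the levels was not tested. Each sequence is the 250 bases before the RefSeq start (build GRCm38.p6, 5′ to 3′ on the gene's strand), and capitals mark the longest run of letters shared by Cxcl1 and Cxcl2, and matches of the motifs named after them. The RefSeq start lies inside the table's gene span for S100a8, Cxcl1 and Cxcl2.
S100a8 chr3:90668821-90669070, plus strand: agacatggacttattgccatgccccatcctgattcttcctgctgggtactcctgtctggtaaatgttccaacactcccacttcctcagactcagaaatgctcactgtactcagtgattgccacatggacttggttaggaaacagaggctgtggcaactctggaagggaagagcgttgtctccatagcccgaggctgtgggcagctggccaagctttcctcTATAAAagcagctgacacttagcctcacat
S100a9 chr3:90695722-90695971, minus strand: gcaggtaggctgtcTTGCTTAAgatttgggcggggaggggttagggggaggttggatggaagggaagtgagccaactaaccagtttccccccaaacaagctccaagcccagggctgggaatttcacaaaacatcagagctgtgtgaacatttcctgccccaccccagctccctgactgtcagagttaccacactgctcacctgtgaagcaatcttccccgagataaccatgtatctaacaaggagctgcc
Cxcl1 chr5:90890995-90891244, plus strand: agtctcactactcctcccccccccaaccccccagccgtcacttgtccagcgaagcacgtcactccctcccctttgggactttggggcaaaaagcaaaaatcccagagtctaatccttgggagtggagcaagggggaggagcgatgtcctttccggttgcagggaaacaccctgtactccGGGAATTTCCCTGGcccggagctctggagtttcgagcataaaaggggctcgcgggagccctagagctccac
Cxcl2 chr5:90903649-90903898, plus strand: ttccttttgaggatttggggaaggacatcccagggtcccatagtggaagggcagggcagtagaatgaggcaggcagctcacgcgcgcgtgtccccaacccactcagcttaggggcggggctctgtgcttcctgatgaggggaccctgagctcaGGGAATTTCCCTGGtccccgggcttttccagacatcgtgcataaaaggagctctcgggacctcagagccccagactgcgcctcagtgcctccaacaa

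RefSeq windows were found for 7 of the 9 genes, all but Cxcl5 and Csf3. The longest run of letters common to the Cxcl1 and Cxcl2 windows was GGGAATTTCCCTGG, at -71 to -58 before Cxcl1 and at -97 to -84 before Cxcl2, and of the 32851 windows of all genes these 2 alone held it (0.00609%). It opens with GGGAATTTCC, a binding motif of NF-kB, which was found in 28 windows (0.0852%), among them that of Cxcl3, another chemokine of this cluster, and that of Nfkbia, which encodes the NF-kB inhibitor. TTGCNNAA, a motif of the C/EBP factors that act in granulocytes, stood at -236 to -229 before S100a9 and, on the opposite strand, at -246 to -239 before Retnlg, against 9.56% of all windows. TATAAA stood at -30 to -25 before S100a8, against 12.4% of all windows. TGANTCA (AP-1, 6.75% of all windows) and TTCNNNGAA (STAT, 7.02%) had no match in the 7 windows, and Csf3r and Cxcr2 had no match to any of these motifs. Both strands were searched, the NF-kB motif lies inside the shared run and no other matches overlapped, and the motifs were chosen after the sequences were seen. A match describes the letters and not binding.

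**Figure D1:**
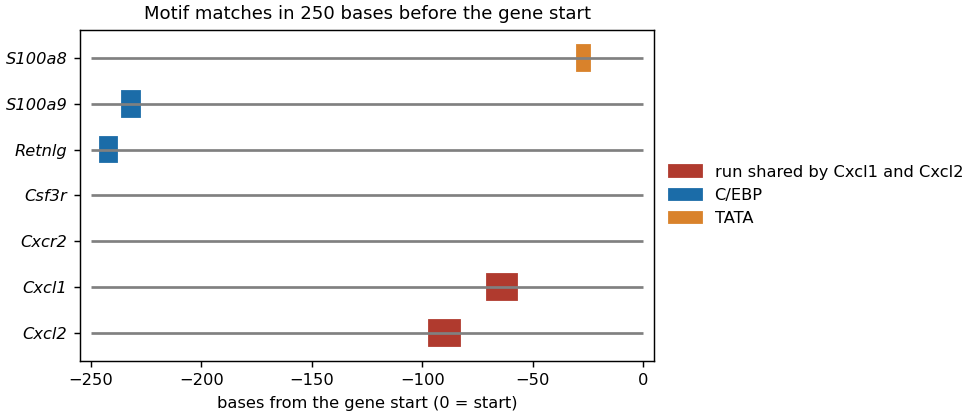
Motif matches in the 250 bases before the RefSeq start of the 7 genes with a window. The x axis is the distance from the start in bases, each grey line is 1 gene, and the colored blocks are the run shared by Cxcl1 and Cxcl2 and the matches of the C/EBP and TATA motifs. The shared run is at -71 to -58 before Cxcl1 and at -97 to -84 before Cxcl2.

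The calprotectin genes had the highest median TPM of the 9 in the tumors. S100a8 was measured at 4.95, 1.72 and 1.40 TPM in WT ovaries 1 to 3. In the MP tumors it ran from 1.85 TPM in the library labelled MP10 to 21.4 TPM in MP7, with a median of 8.63 TPM. It was above the highest WT ovary in 7 of 10 tumors, and MP4, MP8 and the library labelled MP10 lay within the WT range. The WT mean was 2.69 ± 1.96 TPM (SD, n = 3) and the MP mean 9.85 ± 7.13 TPM (SD, n = 10), and the ratio of the median TPM values was 5.01. These values rest on 2 to 68 reads per tumor and on 11 to 51 reads per WT ovary. The largest value, in MP7, came from 36 reads, with an exact Poisson 95% interval of 14.997 to 29.6 TPM for counting error.

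S100a9 was steadier in the WT ovaries, at 2.71, 2.495 and 3.15 TPM. In the tumors its lowest value was 2.46 TPM, in the library labelled MP10, its median 11.8 TPM and its highest 38.7 TPM, in MP7. Every tumor from MP1 to MP9 was above every WT ovary. The library labelled MP10 was below all of them on 2 reads, and its exact Poisson 95% interval of 0.298 to 8.90 TPM spans the WT values. The S100a9 values rest on 2 to 62 reads per tumor and on 12 to 32 reads per WT ovary. Of all genes tested, 6.67% had at least 9 of 10 tumors above every WT ovary, and 3.02% had all 10. The means were 2.78 ± 0.33 TPM (SD, n = 3) and 14.4 ± 10.8 TPM (SD, n = 10), with a ratio of medians of 4.37.

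The genes were compared with limma on log2(TPM + 1) over all 13 libraries, for genes that reached 1 TPM in 3 or more of them. Adding 1 makes the fold change of weakly expressed genes smaller than that of their TPM. Of the 9 genes, 6 passed the filter (S100a8, S100a9, Csf3r, Retnlg, Cxcl1 and Cxcl2), and Retnlg and Cxcl2 passed it only through the tumors. None of the 6 passed an adjusted p of 0.05 in either direction, while of the 17277 genes tested 2.51% were higher in MP tumors and 14.3% lower (16.8% in all). At an unadjusted p under 0.05 there were 2 of 6, S100a9 and Cxcl2, the same share as the 33.0% of all genes tested. The limma-voom fit on the recovered reads called 3 higher, S100a9, Retnlg and Cxcl2, against 2760 of the 17277 genes. For Retnlg and Cxcl2 these calls support no direction, since the filter admitted both genes through their tumor values. The median log2 fold change of all genes tested was -0.58.

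For S100a8 the log2 fold change was 1.35 (standard error 0.65, limma, Benjamini-Hochberg adjusted p = 0.160). For S100a9 it was 1.69 (standard error 0.63, adjusted p = 0.0757). Both differences were larger than their standard errors and missed the threshold. Without the library labelled MP10, S100a9 passed it, at 1.90 (adjusted p = 0.0289), and S100a8, at 1.53, did not (adjusted p = 0.0861). With any other single library left out, neither gene passed. Without 1 of the WT ovaries the adjusted p was 0.211 to 0.236 for S100a9 and 0.215 to 0.426 for S100a8. The exact 2-sided permutation test takes every possible choice of 3 libraries as the WT group. It gave an unadjusted p of 0.0280 for S100a9 and of 0.0629 for S100a8.

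Within the 6 same-number libraries (WT 1 to 3 and MP1 to MP3) the calprotectin genes rose. S100a8 was at 7.02, 17.6 and 10.5 TPM in MP1, MP2 and MP3, and S100a9 at 10.1, 21.03 and 13.5 TPM, and no tumor overlapped a WT ovary in either gene. The log2 fold change was 1.82 for S100a8 (standard error 0.44, limma, Benjamini-Hochberg adjusted p = 0.00603) and 2.02 for S100a9 (standard error 0.31, adjusted p = 0.000519). With all 13 libraries and the number in the library names as a covariate, which gives the same fold changes, S100a9 passed the threshold (adjusted p = 0.0357) and S100a8 did not (adjusted p = 0.0605). Of the 9 genes, 4 passed the filter there and 2 of them were higher, and 1 lower (Csf3r, which reached 1 TPM there in the WT ovaries alone), against 6.84% higher, 62.4% lower and 69.2% either way among the 15239 genes tested, whose median log2 fold change was -1.44. With 3 libraries against 3 the exact permutation test cannot go below p = 0.1, which both genes reached. Among all tested genes, every one of MP1 to MP3 was above every WT ovary in 8.33% and below every WT ovary in 66.0%. When these 6 libraries were rescaled by medians of ratios, which brings the median of all genes to -0.25, the log2 fold changes were 3.05 for S100a8 (adjusted p = 0.00328) and 3.29 for S100a9 (adjusted p = 0.00102).

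The calprotectin genes varied together from tumor to tumor. Over the 10 MP tumors the log2(TPM + 1) values of S100a8 and S100a9 had a Pearson r of 0.94 (permutation p = 2e-05, adjusted over 4 pairs 8e-05) and a Spearman rho of 0.92 (permutation p = 0.0005, adjusted 0.002). Without MP7 and MP9, which lie farthest from the median of S100a8 in TPM, r was 0.95, without MP8 and the library labelled MP10, which lie farthest on the log2 scale, it was 0.86, and without the library labelled MP10 it was 0.91. Each number in the library names holds 3 or 4 tumors, which is too few for a value of r within it. The ratio of S100a9 to S100a8 TPM lay between 0.860 and 2.33 in the tumors and between 0.547 and 2.24 in the WT ovaries, with a median of 1.45 in both, and the difference in its log2 was 0.30 (exact permutation p = 0.469).

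**Figure D2:**
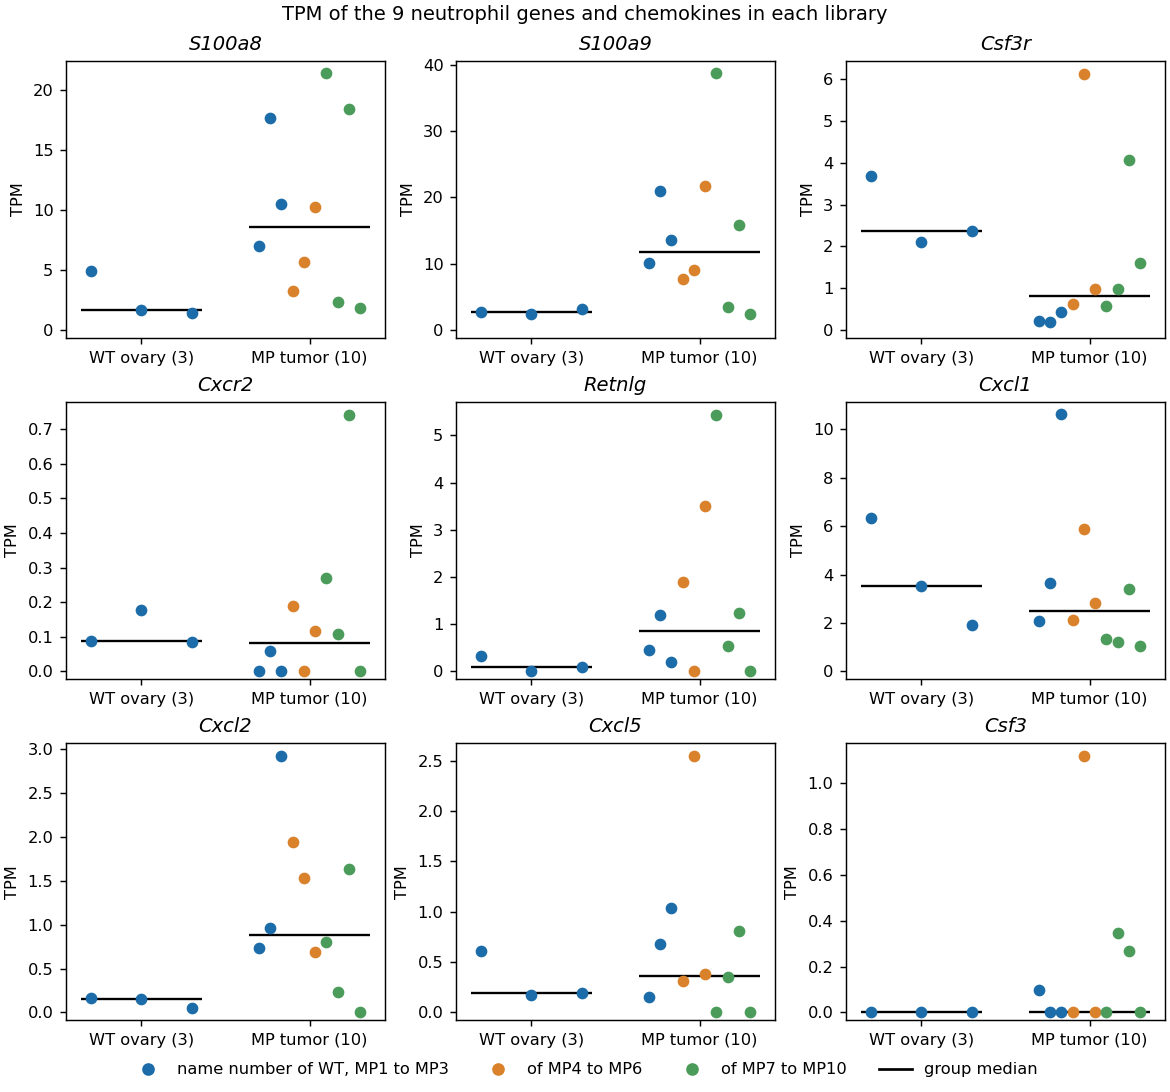
TPM of each of the 9 genes (y axis, linear, each panel on its own scale) in every library of WT ovaries and MP tumors (x axis), colored by the number in the library name, with the median of each group as a bar. S100a9 is between 2.495 and 3.15 TPM in the WT ovaries and reaches 38.7 TPM in the tumors, while Csf3r is above the WT range in MP5 and MP9 and below it in the other tumors.

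The receptors of the neutrophil surface gave other patterns. Csf3r, which encodes the G-CSF receptor and is also made by monocytes, was at 3.68, 2.11 and 2.36 TPM in the WT ovaries. In the tumors its lowest value was 0.199 TPM in MP2, its median 0.809 TPM and its highest 6.13 TPM in MP5. It was below every WT ovary in 8 of 10 tumors, and MP5 and MP9, the latter at 4.07 TPM, were above every WT ovary. The groups therefore overlapped only through these tumors. The means were 2.71 ± 0.84 TPM (SD, n = 3) and 1.59 ± 1.96 TPM (SD, n = 10). The log2 fold change over all libraries was -0.77 (standard error 0.51, limma, Benjamini-Hochberg adjusted p = 0.292), close to the -0.58 of all genes, and -0.80 without the library labelled MP10.

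In the 6 same-number libraries, Csf3r was at 0.231, 0.199 and 0.442 TPM in MP1 to MP3, below every WT ovary, and its log2 difference was -1.51 (standard error 0.21, limma, Benjamini-Hochberg adjusted p = 0.000350). The filter admitted Csf3r there through the WT ovaries alone, so these limma values are a description. There, 62.4% of all tested genes were lower in the tumors, and the median gene changed by -1.44. After rescaling by medians of ratios the change of Csf3r was -0.76 (adjusted p = 0.0122), against a median of all genes of -0.25.

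Cxcr2, the receptor for all 3 chemokines, was close to the limit of detection in every library. It was at 0.0884, 0.178 and 0.0842 TPM in the WT ovaries, from 4 or 5 reads each. In the tumors it ran from 0 to 0.741 TPM with a median of 0.0831 TPM, and 4 tumors had no read. The 6 reads of MP9 gave its highest value (exact Poisson 95% interval 0.272 to 1.61 TPM), and the groups overlapped. It did not pass the filter on low values, and the exact permutation test gave an unadjusted p of 0.888 for a difference in mean log2(TPM + 1) of 0.02. A difference in Cxcr2 was not detectable at this depth.

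Retnlg encodes a resistin-like protein of mouse neutrophils. In the WT ovaries it was at 0.332, 0 and 0.0844 TPM, from 4 reads in all. In the tumors it ran from 0 TPM in MP5 and the library labelled MP10 to 5.43 TPM in MP7, with a median of 0.861 TPM. Of the tumors, 7 were above every WT ovary, and the others lay within the WT range, so the groups overlapped. The log2 fold change was 0.83 (standard error 0.51, limma, Benjamini-Hochberg adjusted p = 0.258), and 0.94 without the library labelled MP10. MP7 also had the highest S100a8 and S100a9. Its Retnlg value rests on 8 reads, and no tumor had more.

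Among the ligands, Cxcl2 was the one with most tumors above the WT ovaries. It was at 0.163, 0.157 and 0.0496 TPM in the WT ovaries. The tumors ran from 0 TPM in the library labelled MP10 through a median of 0.878 TPM to 2.92 TPM in MP3. Every tumor from MP1 to MP9 was above every WT ovary, and the library labelled MP10, with no read, was below. The means were 0.123 ± 0.064 TPM (SD, n = 3) and 1.14 ± 0.87 TPM (SD, n = 10). The log2 fold change was 0.83 (standard error 0.36, limma, Benjamini-Hochberg adjusted p = 0.124), 0.94 without the library labelled MP10 (adjusted p = 0.0556), and 3.57 by limma-voom on the recovered reads (adjusted p = 0.0116), which works on reads with median-of-ratios size factors. These limma values are a description, because the filter admitted Cxcl2 only through the tumors. The exact permutation test, which uses no filter, gave an unadjusted p of 0.0350, with 10 WT reads in all.

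Cxcl1 had the highest median TPM of the 9 genes in the WT ovaries, with values of 6.36, 3.53 and 1.92 TPM. In the tumors it ran from 1.03 TPM in the library labelled MP10 to 10.6 TPM in MP3, with a median of 2.49 TPM. MP3 alone was above every WT ovary, 3 tumors were below, and 6 lay within the WT range. The log2 fold change was -0.27 (standard error 0.52, limma, Benjamini-Hochberg adjusted p = 0.727), and its sign changed with the scaling and with the libraries: it was 0.31 after median-of-ratios scaling, which brings the median of all genes to -0.02, and, without rescaling, 0.26 within the 6 same-number libraries (standard error 0.53, adjusted p = 0.678). Without WT ovary 1 it was 0.067. A direction for Cxcl1 cannot be given from these libraries.

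Cxcl5 was at 0.614, 0.175 and 0.193 TPM in the WT ovaries and between 0 and 2.55 TPM in the tumors, with a median of 0.366 TPM. It was above every WT ovary in 4 tumors, below in 3 and within the range in 3. The highest tumor, MP5, rests on 6 reads. Cxcl5 did not pass the filter, and its difference in mean log2(TPM + 1) was 0.20 (exact permutation p = 0.615).

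Csf3, which encodes G-CSF, had no read in any WT ovary. There, 3 reads, taken as the limit for a count of 0, would be 0.143, 0.230 and 0.109 TPM. The exact Poisson 95% interval used for the other genes reaches 0.176, 0.283 and 0.134 TPM. In the tumors it was at 0.0985 TPM in MP1 (1 read), 1.12 TPM in MP5 (2 reads), 0.347 TPM in MP8 (3 reads) and 0.266 TPM in MP9 (1 read), with no read in the other 6. These are 7 reads in all, and the gene did not pass the filter. The exact permutation test gave p = 0.587. With 0 in every WT ovary and in 6 tumors, it could not give a lower p for higher tumor values, so it decides nothing. These intervals and limits cover counting error only.

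The order of the levels differed between the groups. In the WT ovaries the medians ran from Cxcl1 (3.53 TPM) through S100a9 (2.71 TPM), Csf3r (2.36 TPM) and S100a8 (1.72 TPM) to Cxcl5 (0.193 TPM), Cxcl2 (0.157 TPM), Cxcr2 (0.0884 TPM), Retnlg (0.0844 TPM) and Csf3 (0 TPM). The ranges of the leading 4 overlapped, and so did those of the next 4, apart from Cxcl5 and Cxcl2, whose ranges of 0.175 to 0.614 and 0.0496 to 0.163 TPM did not. In the tumors S100a9 (11.8 TPM) and S100a8 (8.63 TPM) led, followed by Cxcl1 (2.49 TPM), Cxcl2 (0.878 TPM), Retnlg (0.861 TPM), Csf3r (0.809 TPM), Cxcl5 (0.366 TPM), Cxcr2 (0.0831 TPM) and Csf3 (0 TPM), and each neighbor in this order overlapped the next. The summed TPM of the 9 genes was 9.24 to 18.9 in the WT ovaries and 6.95 to 68.6 in the tumors. The library labelled MP10 was the lowest tumor, or tied at 0, for every one of the 9 genes except Csf3r. Apart from Csf3r, its values rest on only 0 to 3 reads per gene, so counting error alone could change this order.

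**Figure D3:**
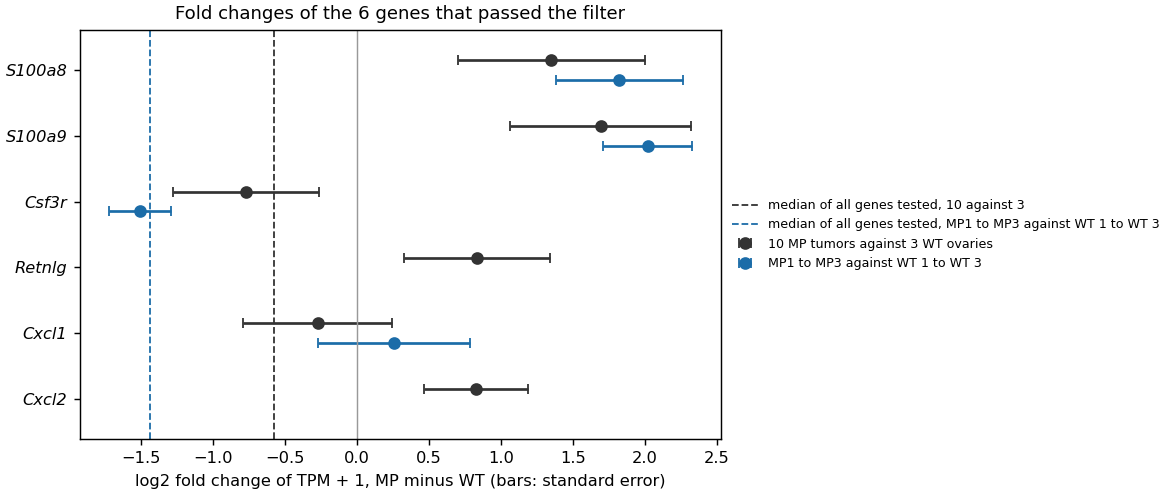
Log2 fold change of TPM + 1 (x axis, MP minus WT, bars are standard errors) of the 6 genes that passed the filter (y axis), over all 13 libraries (dark) and within the 6 same-number libraries (blue, 4 genes), with the median of all genes tested as dashed lines at -0.58 and -1.44. S100a8 and S100a9 lie right of 0 in both comparisons, Csf3r lies near the dashed lines, and Cxcl1 changes side.

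Ligands and receptors were then set beside each other over the 10 tumors. Csf3 and its receptor Csf3r had a Pearson r of 0.79 (permutation p = 0.0125, adjusted over 4 pairs 0.0249) and a Spearman rho of 0.56 (permutation p = 0.0975, adjusted 0.195). Csf3 has 7 reads in these tumors, and MP5 is the highest in both genes. Without MP5, r was 0.51, and without MP9 it was 0.85 (adjusted permutation p = 0.0758), and both missed the threshold. Without MP5 and MP8 it was 0.69. Csf3r and Cxcr2, which neutrophils express together, had an r of 0.33 (permutation p = 0.335, adjusted 0.446) and a rho of 0.13 (permutation p = 0.730), and r was 0.04 without MP5 and MP9. For Cxcl1 and its receptor Cxcr2, r was -0.13 (permutation p = 0.704) and rho -0.14 (permutation p = 0.690), and r was 0.38 without MP3 and MP5. Neither of the last 2 relations passed the threshold.

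**Figure D4:**
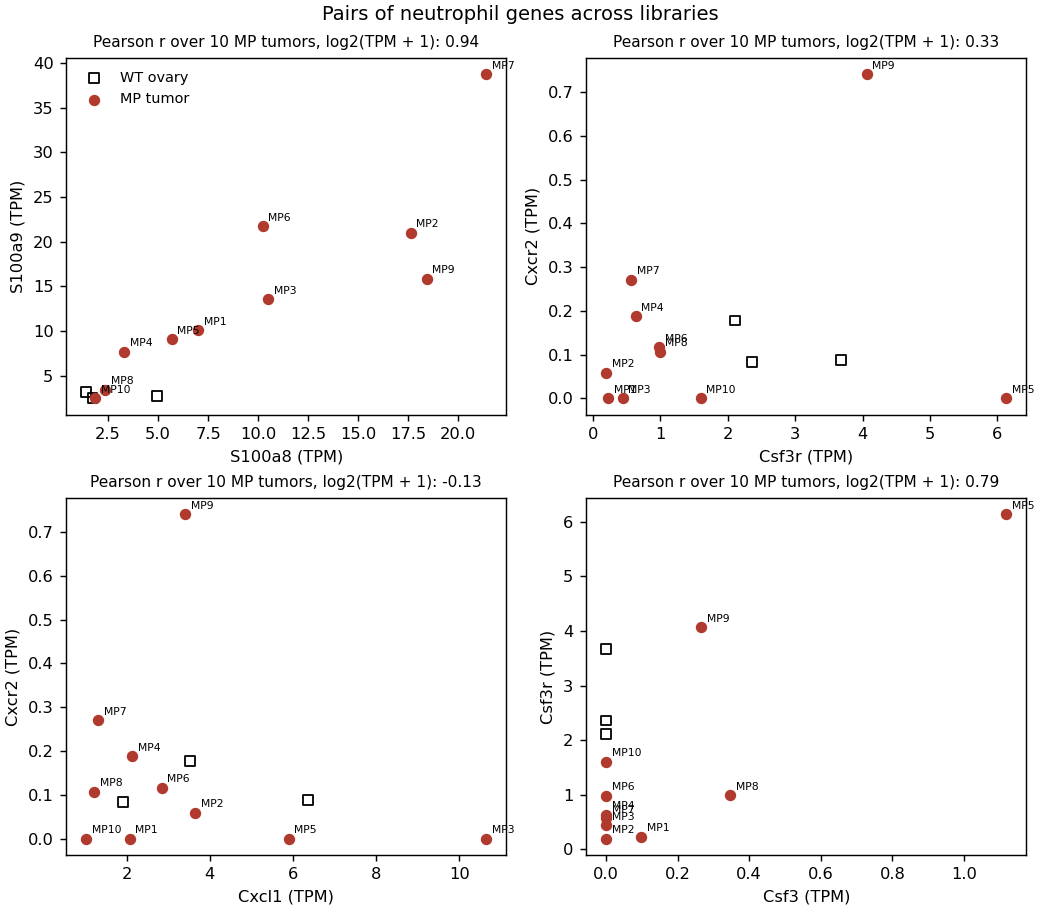
TPM of 4 pairs of genes in each library, 1 panel for each pair with linear axes in TPM, red points for the 10 MP tumors and open squares for the 3 WT ovaries. S100a8 and S100a9 lie along 1 line (r of 0.94 on the log2 scale), whereas the r of 0.79 between Csf3 and Csf3r leans on MP5 at the upper right.

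The genes most like each of 3 of the 9 over the 10 tumors were found by Pearson r of log2(TPM + 1) among the genes that passed the filter, leaving out the 9 themselves, as a description. For S100a8, whose r with S100a9 was higher than with any of them, these were the pseudogene Gm15867 (r of 0.87), CT009718.1 (0.84) and Uqcrh-ps2 (0.82). For Cxcr2, with its few reads, they were Me3 (0.94), Lhfpl1 (0.94) and Nlrp5-ps (0.92), and for Cxcl1 they were Nalcn (0.87), Rab17 (0.87) and Tmem202 (0.85).

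Other neutrophil genes were read from the same fit. Of 18 neutrophil surface and cytoplasmic genes, 12 passed the filter, of which limma called 0 higher and 2 lower in the tumors, a share near the 14.3% of all genes that were lower, with a median log2 fold change of -0.09 against -0.58 for all genes. The lower ones were Cd177, a neutrophil surface antigen, with a log2 fold change of -2.61 (Benjamini-Hochberg adjusted p = 5.06e-06), and Hdc, which makes histamine, with a change of -2.64 (adjusted p = 0.0486). Cd177 reached 1 TPM in the WT ovaries alone, so that the filter admitted it through the group where it is high. Ly6g, the defining surface marker of mouse neutrophils, was at 0 in every tumor and in WT ovaries 1 and 3, and at 0.115 TPM in WT ovary 2. Mrgpra2b was at 0 in every library. The summed TPM of this list was 79.7 to 105 in WT ovaries and 29.0 to 414 in tumors, and its part in the values of the 9 genes was not tested.

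Of 13 neutrophil granule proteins, 8 were tested, 0 were higher and 1 was lower, against 2.51% higher and 14.3% lower among all genes. The lower one was the lactoferrin gene Ltf (log2 fold change -2.42, limma adjusted p = 0.000326). The list had a median log2 fold change of 0.09. Ltf reached 1 TPM in the 3 WT ovaries and in 1 tumor, too few tumors to pass the filter on their own. Mpo, which encodes myeloperoxidase, was at most 0.335 TPM, and Elane, which encodes neutrophil elastase, was at 0 in all WT ovaries and in 7 of 10 tumors, with a maximum of 0.653 TPM. Lcn2, an iron-binding granule protein, had medians of 2.62 TPM in WT ovaries and 0.523 TPM in tumors (log2 fold change -0.97, adjusted p = 0.159). Fcnb was at 0 in every library. The summed TPM of the list was 19.1 to 21.9 in WT ovaries and 3.89 to 35.5 in tumors. Within the 6 same-number libraries, 0 of 8 tested surface and cytoplasmic genes were higher and 4 were lower, and 0 of 4 tested granule genes were higher and 3 were lower, where 62.4% of all genes were lower. None of these lower genes would have passed the filter on MP1 to MP3 alone, so the counts give no support to a direction.

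**Figure D5:**
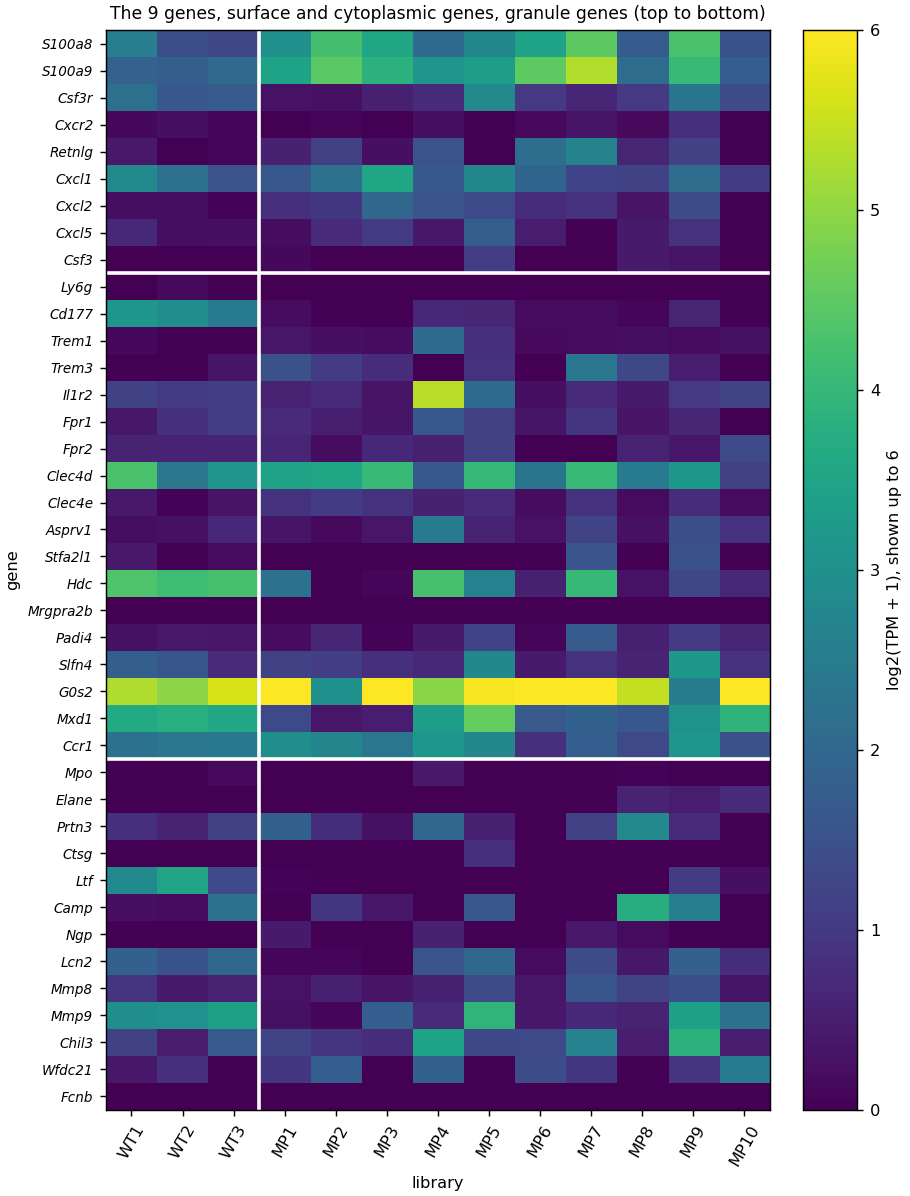
log2(TPM + 1), shown up to 6, in each library (columns, WT ovaries left of the white line) for the 9 genes, the 18 neutrophil surface and cytoplasmic genes and the 13 granule genes (rows, from top to bottom). S100a8 and S100a9 are brighter in most tumors than in the WT ovaries, while Ly6g, Mrgpra2b and Fcnb are dark across the tumors.

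Other CXC ligands and receptors of neutrophil traffic gave 3 tested genes of 7, 0 higher and 1 lower, Cxcl12, the ligand that holds neutrophils in the marrow (log2 fold change -2.43, limma adjusted p = 0.0432), with a list median of -0.96. Cxcl3, the neighbor of Cxcl1 and Cxcl2, was at most 0.0385 TPM in WT ovaries and 0.753 TPM in tumors, and Cxcr1 was at 0 in 8 of 10 tumors. Ppbp, a platelet chemokine that also binds CXCR2, had medians of 0.702 and 1.03 TPM (log2 fold change 0.43, adjusted p = 0.646). Of 15 cytokines and receptors upstream of the chemokines, 12 were tested, 0 were higher and 2 lower, Csf2rb (-2.03, adjusted p = 0.0155) and Il1r1 (-2.15, adjusted p = 0.0254), near the 14.3% lower among all genes, with a list median of -1.11. Il1b, which induces Cxcl1 and Cxcl2 in many cells, had medians of 0.780 and 1.61 TPM (log2 fold change 0.41, adjusted p = 0.525). Of 8 NF-kB factors and feedback regulators none was called, at a list median of -1.04, and all 8 were lower within the 6 same-number libraries, where 62.4% of all genes were lower, with a list median of -2.31 against -1.44 for all genes. Of these 8, 4 would not have passed the filter on MP1 to MP3 alone.

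Most other genes of the S100 family were lower in the tumors. Of 11 other S100 genes, 8 were tested and 6 fell in MP tumors, against 14.3% of all genes, with a list median of -2.11, and 1 of the 6, S100a3, reached 1 TPM in the WT ovaries alone. Among them S100a4 fell by 3.08 on the log2 scale (limma adjusted p = 0.0382), S100a6 by 3.03 (adjusted p = 0.00615), S100a16 by 2.78 (adjusted p = 0.00946) and S100a13 by 2.13 (adjusted p = 0.000721). S100a6 ran from 535 to 1170 TPM in WT ovaries and from 22.6 to 309 TPM in tumors, without overlap, a pattern found in 16.4% of all genes tested. The difference between these genes and S100a8 or S100a9 was not tested. Of the 5 receptors of S100A8/A9 and their partners none was called, at a list median of -0.63. Of 6 granulocyte transcription factors 1 was lower, Gfi1 (-1.73, adjusted p = 0.000776), at a list median of -0.83. Gfi1 reached 1 TPM in the 3 WT ovaries and 1 tumor. Within the 6 same-number libraries 3 of 4 tested receptors and partners and 5 of 5 tested factors were lower, against 62.4% of all genes. Of these 5 factors, 3 would not have passed the filter on MP1 to MP3 alone.

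Markers of other cells were read beside these values, with 2.51% of all genes called higher and 14.3% lower as the background for each count. Macrophages and monocytes can also express S100a8, S100a9, Csf3r and the chemokines. Of their 11 markers 11 were tested, 0 were higher and 1 was lower (Cx3cr1, log2 fold change -2.41, limma adjusted p = 0.0151). Their summed TPM was 752 to 1058 in WT ovaries and 223 to 1069 in tumors. None was at 0 throughout, and Cd68 had medians of 115 and 72.6 TPM. Within the 6 same-number libraries 8 of 10 tested were lower, against 62.4% of all genes, with a list median of -1.69 against -1.44. Of these 8, 3 would not have passed the filter on MP1 to MP3 alone. Red cell markers moved with the tumors: 2 of 5 were higher (Hbb-bs 2.37, adjusted p = 0.0248, and Hbb-bt 2.42, adjusted p = 0.0231), and the summed TPM was 226 to 432 in WT ovaries and 451 to 6177 in tumors. Of the 4 tumors with most Hbb-bs, MP4 (4263 TPM) and the library labelled MP10 (1952 TPM) had S100a8 at 3.30 and 1.85 TPM, and MP2 (2113 TPM) and MP7 (1924 TPM) had it at 17.6 and 21.4 TPM. Of the platelet markers 3 of 5 were tested and none was called, with a summed TPM of 20.9 to 42.9 and 13.99 to 167, and Pf4 had medians of 20.3 and 21.8 TPM. Of 8 lymphocyte markers 4 were tested and 2 were lower (Cd3d and Nkg7), of 6 eosinophil, basophil and mast cell markers 1 was tested and was lower (Cpa3), and of 7 epithelial markers 6 were tested and 2 were lower (Epcam and Krt7), with a median of -2.17. Cd3d and Cpa3 reached 1 TPM in the WT ovaries alone, and Nkg7 in 2 WT ovaries and 2 tumors. The part of these cells in the values of the 9 genes was not tested.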

How the data were processed

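The authors deposited 1 table with a column of TPM values for each library, with the position and length of each gene, and did not pool replicates. The submitters' processing notes name FastQC 0.11.5, Trimmomatic 0.36, STAR 2.5.3a, featureCounts 1.6.3 and mm10/GRCm38, whereas the library protocol names a human build, HTSeq and RPKM. The table holds mouse genes, of which 96.0% have the start and end of GENCODE M21. Libraries were polyA-selected and read from 1 end at 76 bp.

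TPM times gene length was a whole multiple of its smallest step in each library (100% of values within 0.01), and that step was taken as 1 read. Libraries of 1 group differed by more than sampling noise. The labels do not say that the samples are separate animals, so p-values measure the spread between these samples.

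Values were tested as log2(TPM + 1) with limma 3.58.1 in R 4.3.3 (trended, robust), in genes that reached 1 TPM in 3 or more libraries, with Benjamini-Hochberg adjustment over all genes, at a threshold of 0.05. The limma script was tested on simulated data. Single genes had exact 2-sided permutation tests, and correlations 100000 permutations. Alternatives varied the pseudocount, filter, scaling, name number, replicate block, empirical Bayes options and libraries, and voom was run on the recovered reads. The alternatives added after seeing the data were the libraries without MP4 and MP5 (the shallowest), rescaling within the 6 same-number libraries, and those of the correlations.

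The 9 genes and the 15 marker and pathway lists were chosen with earlier results of these data known. The named genes are the 9, Trp53, up to 4 called genes of each list with the largest change, defining markers, and the 3 genes most like S100a8, Cxcr2 and Cxcl1. Mrgpra2b, Fcnb and Nfkbia were named after their values were seen. Sequences are from RefSeq (GRCm38.p6). Figures were drawn with matplotlib 3.10.9 in Python 3.11.15.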

Additional observations from a re-analysis of the deposited data

Results flagged for a closer look

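Among 21 genes examined for a single tumor far from the other 9, 4 had one. The 1.05 that the rule expects by chance does not apply to genes with few reads and several tumors at 0, as these 4 are. Cxcr2 was at 0.741 TPM in MP9 (6 reads), with 0 to 0.271 TPM in the other tumors. Csf3 was at 1.12 TPM in MP5 (2 reads), with 0 to 0.347 TPM in the others. Mpo was at 0.335 TPM in MP4 (2 reads), with at most 0.0477 TPM in the others. Cxcr1 was at 0.505 TPM in MP9 (2 reads), with at most 0.110 TPM in the others. All 4 values rest on few reads, and their causes were not tested.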

How the results depend on the processing

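Over all alternatives, the 6 tested genes gave 148 log2 fold changes, of which 122 kept direction and side of the threshold, 18 newly passed it and 8, all of Cxcl1, turned from -0.27 to positive. For Cxcl1 these were 0.31 with median-of-ratios scaling, 0.61 with quantile normalization, 0.40 with voom, 0.26 within the 6 same-number libraries, with the name number as covariate and with the replicate block, 0.067 without WT replicate 1 (between -0.60 and 0.067 with any 1 library left out), and 1.49 within these 6 after rescaling. The count of the 9 genes called higher was 0 in the report. It was 1 with quantile normalization, 3 with voom and 2 within these 6 (S100a8 and S100a9, also after rescaling). It was 2 with the covariate (S100a9 and Cxcl2) and 3 with the replicate block (S100a8, S100a9 and Cxcl2). With 1 library left out it was between 0 and 1. The filter admitted Cxcl2, and Retnlg in the voom count, only through the tumors, so their calls support no direction. The counts over all genes are given below. The count called lower, 0, was 1 (Csf3r) within these 6, also after rescaling, with the covariate and with the replicate block, though within these 6 the filter admitted Csf3r through the WT ovaries alone. The replicate numbers do not pair the samples (r of the deviations of same-numbered libraries -0.05, 0.02 and -0.04), and with the covariate or the block the group difference comes from those 6 libraries only.

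Of all genes, 433 were higher and 2463 lower. The number higher was 1274 with median-of-ratios scaling, 1904 with quantile normalization, 2760 with voom, 1043 within these 6, 894 with the covariate, 1087 with the replicate block, 4265 within these 6 after rescaling, and 65 to 637 with 1 library left out. The number lower was 1897, 2091 and 3018 with the first 3 of these, 900 when 10 libraries had to reach 1 TPM (fewer genes were tested), 9504 within these 6, 8534 with the covariate, 9803 with the replicate block, 5632 within these 6 after rescaling, and 604 to 3238 with 1 library left out. The lowest counts came without 1 of the 3 WT ovaries. The cause of the other differences was not tested.

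The r of Csf3 with Csf3r was 0.77 after median-of-ratios scaling (adjusted permutation p = 0.0511) and 0.51 to 0.85 with 1 tumor left out. That of Cxcl1 with Cxcr2 was -0.45 to 0.072, turning positive without MP3, and that of Csf3r with Cxcr2 was -0.27 to 0.75, turning without MP9. That of S100a8 with S100a9 was 0.91 to 0.96. Depth limits Cxcr2, Retnlg, Cxcl5 and Csf3 most: at most 8 reads in a tumor for Retnlg and 3 for Csf3.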
